A study of Mus musculus with 12 samples.

Results

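The immunoglobulin variable (V) segments are the gene pieces that encode most of the antigen-binding part of an antibody chain. The mouse carries a set of them for the heavy chain (symbols starting with Ighv), for the kappa light chain (Igkv) and for the lambda light chain (Iglv). The segments described here were chosen by 1 measured value, 100 or more raw counts summed over the 12 libraries. They number 171 of the 348 V genes listed among 54532 genes, 88 of 185 heavy, 80 of 160 kappa and 3 of 3 lambda. Colon RNA of male C57BL/6 mice was sequenced in 4 groups of 3 mice, taken from 8 mice a group that were 6 weeks old at the start and had 1 week of acclimatisation. The Con group stayed without DSS (the labels call it untreated, the methods give it vehicle by gavage). The DSS group was given 3% (w/v) dextran sulfate sodium (DSS) to drink over 5 days, which damages the lining of the colon. By the methods it also had vehicle by gavage. The UA+DSS and DSS+UA groups drank the same DSS and were gavaged with 200 mg/kg of the plant triterpenoid ursolic acid (UA), from 1 day before DSS in UA+DSS and from 3 days after its start in DSS+UA. The methods name 7 days of ursolic acid for UA+DSS and 4 for DSS+UA, while another passage names 9 and 5. No mouse was labelled as carrying a mutation or a transgene, and each library is 1 mouse. Below, DSS 3 stands for replicate 3 of the DSS group, and the other libraries are named likewise.

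Each developing B cell joins 1 heavy-chain V segment to smaller diversity and joining segments, and 1 light-chain V segment to a joining segment, so that a B cell clone transcribes its own pair of V segments. Plasma cells, the antibody-secreting descendants of B cells, hold far more immunoglobulin RNA per cell than B cells do, and in the gut wall most of them make IgA. A V segment's level in colon RNA therefore sums over every B-lineage cell that uses it.

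The leading lambda, kappa and heavy segments by mean level are shown, with Ighv7-3 and Igkv4-53, by the end of their coding sequence, because the joined junction of an antibody starts there. Each line gives the last 60 annotated coding bases, 5′ to 3′, with capitals from the last in-frame cysteine codon (TGT or TGC) onward. The sequences are of the C57BL/6 reference (GENCODE M21, GRCm38), not of the sequenced mice, in which the bases past the cysteine are often trimmed or mutated.
Iglv1: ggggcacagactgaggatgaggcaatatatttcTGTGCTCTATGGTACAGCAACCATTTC
Igkv1-117: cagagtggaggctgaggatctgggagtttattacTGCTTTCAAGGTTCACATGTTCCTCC
Igkv4-53: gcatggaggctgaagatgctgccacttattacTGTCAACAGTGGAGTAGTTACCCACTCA
Ighv1-81: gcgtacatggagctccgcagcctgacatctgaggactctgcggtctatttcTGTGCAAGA
Ighv7-3: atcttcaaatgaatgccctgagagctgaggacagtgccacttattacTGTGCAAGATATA

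Iglv1 (ENSMUSG00000076934, chr16:19085017-19085500, minus strand) was the segment with the highest mean level, Igkv1-117 (ENSMUSG00000094335, chr6:68121046-68121827, plus strand) led the kappa segments and Ighv1-81 (ENSMUSG00000094689, chr12:115920279-115920712, minus strand) the heavy ones. Ighv7-3 (ENSMUSG00000076652, chr12:114153180-114153644, minus strand) led the heavy counts of 3 libraries, and Igkv4-53 (ENSMUSG00000095753, chr6:69648824-69649363, minus strand) was the called segment with the strongest decrease in DSS+UA. All are annotated as functional V genes.

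Some V segments of a family are near copies of each other, which limits what a read can tell. The last 300 coding bases of 2 kappa pairs are shown with the bases that differ between the partners in capitals. Both partners of the first pair were called raised in DSS, and the second pair led the kappa counts of different libraries.
Igkv1-117: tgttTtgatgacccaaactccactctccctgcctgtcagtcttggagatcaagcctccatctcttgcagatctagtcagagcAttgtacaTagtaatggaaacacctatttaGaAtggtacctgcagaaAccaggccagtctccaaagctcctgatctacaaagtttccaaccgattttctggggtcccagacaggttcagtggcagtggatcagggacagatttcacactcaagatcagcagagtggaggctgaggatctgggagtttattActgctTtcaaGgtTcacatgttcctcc
Igkv1-110: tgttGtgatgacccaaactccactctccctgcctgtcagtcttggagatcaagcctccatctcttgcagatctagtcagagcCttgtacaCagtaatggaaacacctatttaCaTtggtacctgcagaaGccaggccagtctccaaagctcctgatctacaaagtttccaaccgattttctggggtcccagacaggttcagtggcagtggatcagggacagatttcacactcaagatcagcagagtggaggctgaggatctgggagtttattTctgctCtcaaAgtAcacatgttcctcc
Igkv10-96: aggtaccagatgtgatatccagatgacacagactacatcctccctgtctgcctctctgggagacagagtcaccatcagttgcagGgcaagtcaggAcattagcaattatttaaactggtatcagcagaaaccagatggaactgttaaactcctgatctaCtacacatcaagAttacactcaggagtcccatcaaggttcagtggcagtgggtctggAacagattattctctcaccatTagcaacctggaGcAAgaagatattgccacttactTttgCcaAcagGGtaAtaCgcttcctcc
Igkv10-94: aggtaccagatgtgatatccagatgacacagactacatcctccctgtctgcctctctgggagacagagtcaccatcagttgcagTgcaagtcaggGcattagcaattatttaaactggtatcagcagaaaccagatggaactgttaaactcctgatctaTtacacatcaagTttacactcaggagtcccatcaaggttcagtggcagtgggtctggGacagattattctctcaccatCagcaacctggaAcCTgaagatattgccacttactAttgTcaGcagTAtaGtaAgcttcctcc
Igkv1-117 and Igkv1-110 differed at 10 of these 300 bases (96.7% identity), with an identical run of 142 bases. Igkv10-96 and Igkv10-94 differed at 16 (94.7% identity, longest identical run 84 bases), and Iglv1 and Iglv2 at 8 (97.3%). Of the 171 segments, 126 shared 10% or more of their 50-base stretches with another annotated gene, and these held 79.6% of the segments' counts, while 29 shared none. How the authors assigned reads that match several genes is not given in the sources used here, so the counts of such segments are uncertain between partners.

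The segments chosen held 99.8% of all V counts (639238 of 640624). None of the 130 V pseudogenes was among them, although 37 had counts, at most 63 over the 12 libraries. No count at all was found for 103 of the 348 V genes. The members just above the threshold were Igkv4-69, Ighv3-4 and Ighv2-6-8 with 102, 103 and 124 counts, and just below it lay Igkv3-3, Igkv6-29 and Igkv8-16 with 80, 78 and 75. In all 12 libraries at least 1 count was found for 144 of the 171, and 167 passed the filter on low counts and were tested. The summed counts that chose the members come from all groups together, so counts and medians over the members are descriptions.

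The libraries held 15566216 to 19498383 counts. DSS 3 stood apart by exocrine pancreas genes, whose 10 listed genes summed to 17469.6 CPM (a gene's counts relative to the library total, with TMM scaling), against 33.9 to 571 CPM in the other 11 libraries. DSS 2 stood apart by its 8 listed neutrophil genes, which summed to 18252 CPM against 9.26 to 1023 CPM elsewhere. A score of position along the colon from Hox genes was -5.70 to -4.16 in UA+DSS, 4.11 to 5.06 in DSS+UA, 0.37 to 3.10 in DSS and 5.53, -3.03 and -1.83 in Con. Markers of colon epithelium, plasma cells and B cells were present in every library. The part of these differences in the results below was not tested, beyond the counts given without a library or with the score as a covariate.

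The summed V segment level was 459, 1708 and 2670.1 CPM in the Con mice and 7342, 2540.3 and 5643 CPM in the DSS mice. It was 3545, 2779 and 2171 CPM in the UA+DSS mice and 1425, 3158 and 1155 CPM in the DSS+UA mice. DSS 1 and DSS 3 were above every other library, but DSS 2 lay below Con 3, so the DSS and Con libraries overlapped. DSS+UA 1 and DSS+UA 3 lay below all UA+DSS libraries, while DSS+UA 2 lay above 2 of them. The mean was 1612 ± 1109 CPM for Con and 5175 ± 2435 CPM for DSS, with 2831 ± 689 CPM for UA+DSS and 1913 ± 1087 CPM for DSS+UA (SD, n = 3 each). Without Con 1, the library with the lowest level, the Con mean was 2189 CPM, and without DSS 3 the DSS mean was 4941 CPM. In bulk RNA of a tissue, fewer cells of a type and less RNA per cell cannot be told apart. As a share of all counts, the V segments took 0.0465% of Con 1 and 0.795% of DSS 1, the extremes.

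**Figure D1:**
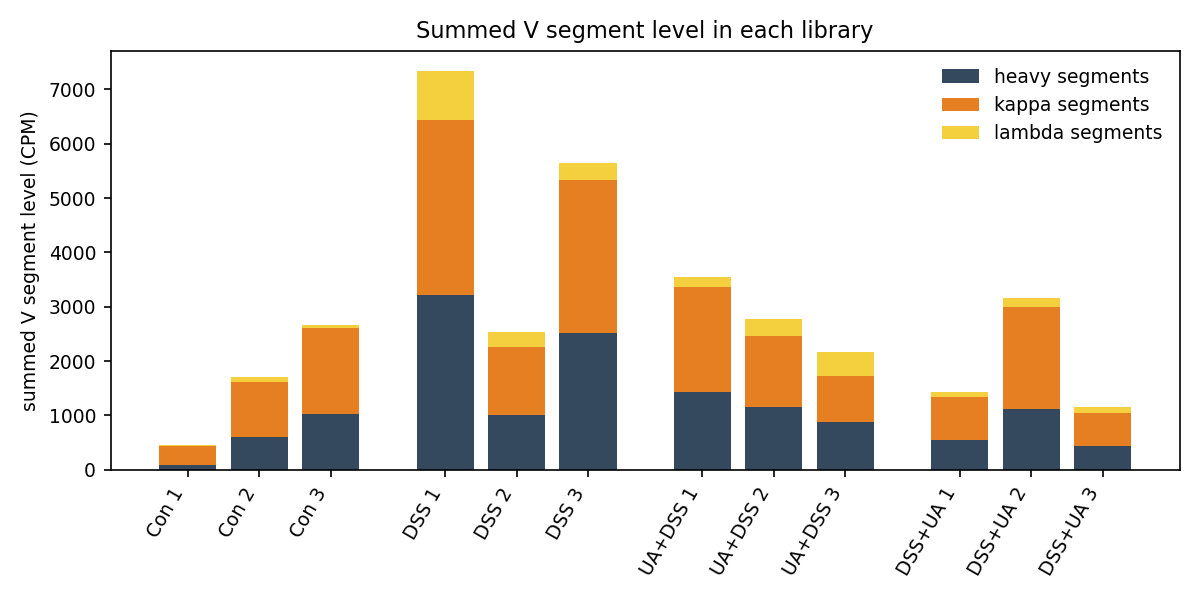
Stacked bars give the summed level of the 171 V segments in each of the 12 libraries in CPM, split into heavy, kappa and lambda segments. The bars reach from 459 CPM in Con 1 to 7342 CPM in DSS 1, and DSS 2 at 2540.3 CPM lies below Con 3 at 2670.1 CPM.

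The heavy segments took a smaller share of the V counts in Con than in DSS. Their share was 21.2, 35.7 and 38.6% in Con and 43.8, 39.7 and 44.7% in DSS, with no overlap between the libraries. It was 40.2, 41.3 and 41.0% in UA+DSS and 38.1, 35.3 and 38.3% in DSS+UA, and every UA+DSS library lay above every DSS+UA and every Con library. The lowest share, 21.2%, was that of Con 1, the library with the fewest V counts (8871). Without it the Con mean moved from 31.9 ± 9.32% to 37.2%, against 42.7 ± 2.68% in DSS (SD, n = 3). The share of kappa segments was 74.2, 59.3 and 58.8% in Con and 43.9, 49.2 and 49.7% in DSS, again without overlap.

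Lambda chains are rare in mice, in which a small set of lambda V segments is used. The 3 lambda segments took 4.60, 4.94 and 2.53% of the V counts in Con and 12.3, 11.1 and 5.57% in DSS, so that every DSS library lay above every Con library. Without the 126 segments that share stretches, which leaves Iglv3 alone for lambda, the order of the means turned. The mean lambda share was then 1.95% in Con and 0.908% in DSS. That total also lacks the heavy and kappa segments that share stretches, so these shares do not compare directly with those above. By CPM, given below, DSS and Con did not overlap for Iglv1 and overlapped for Iglv2. The shares were 4.86, 11.2 and 20.3% in UA+DSS and 5.84, 5.35 and 9.42% in DSS+UA. UA+DSS 1 fell among the Con libraries, and UA+DSS 3 held the highest share of all. Per library, Iglv1 read 15.8, 43.3 and 46.2 CPM in the Con mice and 782, 251 and 243 CPM in the DSS mice. In UA+DSS it read 118, 269 and 393 CPM and in DSS+UA 62.7, 142 and 62.8 CPM. All 9 DSS-treated libraries exceeded the highest Con library. The gain in DSS against Con passed the test (log2 fold change 3.60, SE 0.67, edgeR adjusted p = 0.00548) and held in every alternative (adjusted p 4.21e-08 to 0.0278), although the log2 fold change was 2.82 without DSS 1. Iglv1 in DSS+UA against DSS did not pass (log2 fold change -2.25, SE 0.64, edgeR adjusted p = 0.0549).

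Iglv2, the near copy of Iglv1, read 2.12, 34.8 and 17.7 CPM in the Con mice and 114, 21.3 and 66.6 CPM in the DSS mice, and the libraries overlapped (log2 fold change 1.89, SE 0.82, edgeR adjusted p = 0.111). It read 49.0, 41.2 and 42.3 CPM in the UA+DSS mice and 17.0, 17.9 and 42.0 CPM in the DSS+UA mice. Iglv3, which shares no 50-base stretch with another gene, read 3.21, 6.27 and 3.74 CPM in the Con mice and 9.28, 9.67 and 4.70 CPM in the DSS mice (log2 fold change 0.84, SE 0.46, edgeR adjusted p = 0.188). In UA+DSS it read 5.26, 2.37 and 4.09 CPM and in DSS+UA 3.58, 8.97 and 3.99 CPM. A lambda V segment is spliced to a lambda constant region, Iglv1 mostly to Iglc1 or Iglc3 and Iglv2 mostly to Iglc2. Iglc1 read 27.9, 47.7 and 38.5 CPM in the Con mice, 716, 268 and 164 CPM in the DSS mice, 73.9, 294 and 386 CPM in the UA+DSS mice and 64.3, 93.2 and 70.5 CPM in the DSS+UA mice. As for Iglv1, DSS 1 was its highest library, UA+DSS 3 the next and Con 1 the lowest. Iglc2 read 29.0, 92.1 and 44.9 CPM in the Con mice and 175, 59.7 and 82.4 CPM in the DSS mice, with DSS 1 again the highest.

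Levels of different segments were compared as CPM per kilobase of exon. By the mean over the 12 libraries, Iglv1 stood first at 518 CPM per kilobase, although Igkv1-117 exceeded it in 7 of the 12 libraries, all 3 Con libraries among them. Igkv1-117 at 400.0, Ighv1-81 at 242 and Igkv10-96 at 211 followed. Igkv1-110, Ighv1-53, Igkv14-111, Igkv6-23, Ighv1-9 and Ighv7-3 came next, with 169.9 to 152, and the same 10 came first by CPM without the length. No neighbours in this order differed beyond their spread over the libraries. Igkv1-117 read 20.9, 94.0 and 79.5 CPM in the Con mice, 221, 128 and 832 CPM in the DSS mice, 169, 81.5 and 79.6 CPM in the UA+DSS mice and 83.3, 76.6 and 74.3 CPM in the DSS+UA mice. DSS 3 alone held 10.1 times the median library. Ighv1-81 had the same shape, with 7.86, 54.9 and 74.8 CPM in the Con mice and 176, 59.2 and 409.6 CPM in the DSS mice. It read 52.3, 44.0 and 36.4 CPM in the UA+DSS mice and 35.8, 29.8 and 37.0 CPM in the DSS+UA mice, and DSS 3 was again its highest library.

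A kappa segment that was high in a Con library was Igkv6-23, at 27.7, 52.7 and 166 CPM in the Con mice and 85.1, 52.4 and 27.4 CPM in the DSS mice. Its log2 fold change in DSS against Con was -0.58 (SE 0.88, edgeR adjusted p = 0.650), the only negative one among these 10. Igkv14-111 read 11.4, 28.6 and 142 CPM in the Con mice and 148, 40.7 and 88.1 CPM in the DSS mice, and Con 3 and DSS 1 were its high libraries. Igkv10-96 reached 282 CPM in DSS+UA 2 and stayed between 18.7 and 136 CPM elsewhere. Its partner Igkv10-94 reached 297 CPM in DSS 1 and read 74.3 CPM in DSS+UA 2, its second highest library. Igkv10-94 was called raised in DSS against Con (log2 fold change 4.10, SE 1.30, edgeR adjusted p = 0.0403), but the log2 fold change was 1.45 without DSS 1, and the call was lost without Con 1, Con 2, Con 3, DSS 1, UA+DSS 1, UA+DSS 2, UA+DSS 3 or DSS+UA 1 (edgeR adjusted p 0.0502 to 0.281). Over all 171 segments, the highest library held a median of 6.10 times the median library. It held 5 times or more for 101 segments and 10 times or more for 47. The highest library was DSS 1 for 63 segments, DSS 3 for 33, UA+DSS 1 for 21 and DSS+UA 2 for 16, and Con 1 was the highest for 0 and the lowest for 117.

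Which segment led a library changed from mouse to mouse. In the 12 libraries 8 different heavy segments and 6 different kappa segments took the first place of their locus. Ighv1-81 led the heavy counts of Con 1, Con 2 and DSS 3, and Ighv7-3 those of DSS 2, UA+DSS 3 and DSS+UA 1. Ighv1-64, Ighv1-53, Ighv1-26, Ighv10-1, Ighv1-9 and Ighv5-9 led 1 library each (Con 3, DSS 1, UA+DSS 1, UA+DSS 2, DSS+UA 2 and DSS+UA 3). Igkv1-117 led the kappa counts of 7 libraries, and Igkv6-17, Igkv6-23, Igkv10-94, Igkv8-27 and Igkv10-96 those of Con 1, Con 3, DSS 1, UA+DSS 2 and DSS+UA 2. The strongest leader was Igkv1-117 in DSS 3, with 29.6% of the kappa counts. Ighv7-3 took 0.425, 0.473 and 0.384% of the heavy counts in Con, 9.17, 8.64 and 0.869% in DSS, 1.13, 0.702 and 16.9% in UA+DSS and 8.16, 1.27 and 3.005% in DSS+UA, so that every library with DSS lay above every Con library. Ighv5-9 took 13.5% of the heavy counts in DSS+UA 3 and at most 0.951% in any other library. Ighv10-1 took 7.72% and Igkv8-27 7.87% of their loci in UA+DSS 2, and at most 1.82% and 2.18% elsewhere.

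**Figure D2:**
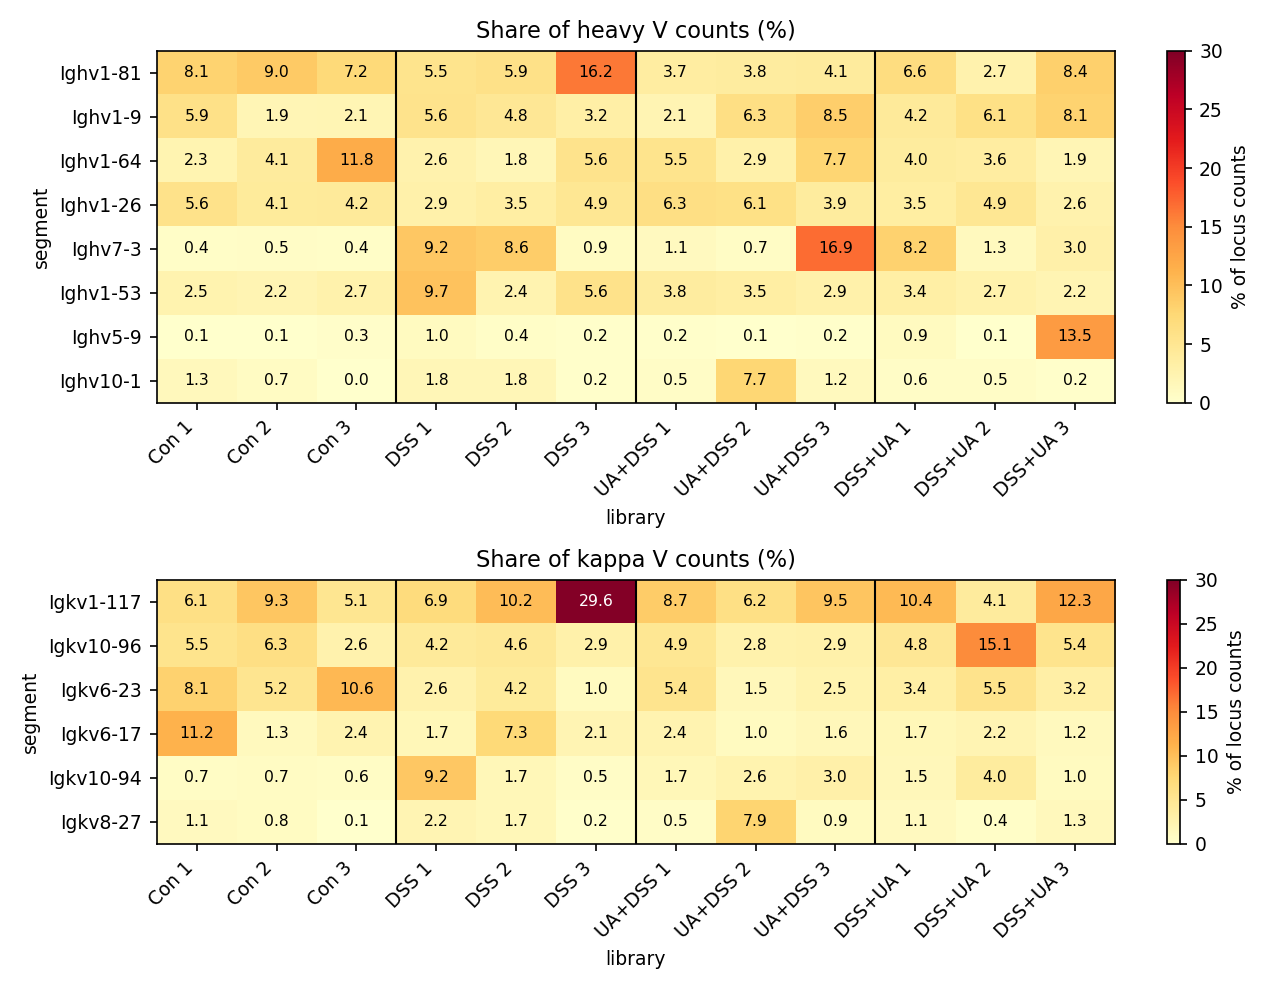
Each cell gives the share of a library's heavy (top) or kappa (bottom) V counts held by a segment that led at least 1 library, in percent, with libraries in columns and black lines between the groups. High shares stand as single cells, such as 29.6% for Igkv1-117 in DSS 3, 16.9% for Ighv7-3 in UA+DSS 3 and 13.5% for Ighv5-9 in DSS+UA 3.

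Diversity of use was measured by the effective number of segments, the exponential of the Shannon entropy, which equals the number of segments when all are used alike. For the heavy segments it was 46.2, 43.9 and 39.4 in Con and 42.4, 47.0 and 29.9 in DSS. In UA+DSS it was 49.8, 43.3 and 34.1 and in DSS+UA 47.5, 48.6 and 40.9, so that the 4 groups overlapped. The lowest values were those of DSS 3 and UA+DSS 3, and the highest that of UA+DSS 1. For the kappa segments it was 36.1, 40.8 and 35.4 in Con, 43.4, 41.5 and 21.5 in DSS, 44.2, 42.6 and 40.6 in UA+DSS and 40.9, 37.3 and 37.5 in DSS+UA. DSS 3 was again the lowest, far below the other libraries, which lay between 35.4 and 44.2. The mean of the kappa values was 35.5 ± 12.1 in DSS (SD, n = 3) and 42.5 without DSS 3, against 37.5 ± 2.94 in Con, 42.5 ± 1.79 in UA+DSS and 38.6 ± 2.03 in DSS+UA. DSS 1, DSS 2, UA+DSS 1, UA+DSS 2 and DSS+UA 1 lay above all Con libraries, and DSS 3 below them.

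The top 10 kappa segments took 54.2, 49.4 and 53.9% of the kappa counts in Con and 46.3, 47.7 and 68.4% in DSS. Their share was 45.8, 45.3 and 47.0% in UA+DSS and 50.6, 48.9 and 53.8% in DSS+UA, and each UA+DSS library lay below each Con and each DSS+UA library. The top 10 heavy segments took 43.8, 45.1 and 52.1% in Con, 49.7, 45.8 and 62.4% in DSS, 41.9, 47.6 and 55.8% in UA+DSS and 42.7, 43.0 and 49.1% in DSS+UA, with overlap between all groups. To reach 50% of the kappa counts took 4 segments in DSS 3 and 9 to 12 in the other libraries. To reach 50% of the heavy counts took 7 segments in DSS 3, 8 in UA+DSS 3 and 10 to 13 in the others. Thinning every library to the 1883 heavy and 6580 kappa counts of the shallowest, Con 1, left the effective number of DSS 3 at 29.2 and 21.4. At that equal depth 74.0 to 76.7 of the 88 heavy segments were expected to be seen in Con and 72.4 to 81.7 in DSS.

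**Figure D3:**
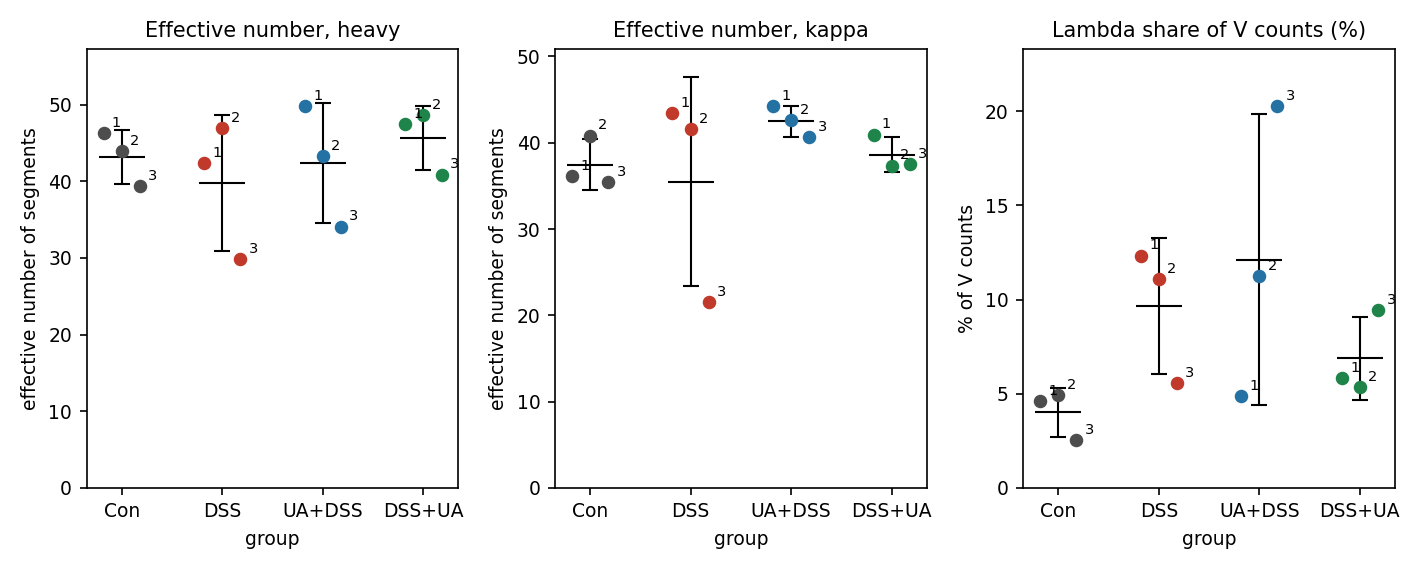
Points are libraries (replicate number beside each), with the group mean as a bar and the SD (n = 3) as whiskers, for the effective number of heavy segments, that of kappa segments and the lambda share of all V counts. DSS 3 lies lowest in both panels of the effective number (29.9 and 21.5), and UA+DSS 3 holds the highest lambda share (20.3%).

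How alike the libraries were in their use of segments was described by the Morisita-Horn index, which is 1 for equal shares and 0 where no segment is shared. For the heavy segments the median index was 0.667 over the 12 pairs of libraries within a group and 0.644 over the 54 pairs between groups. For the kappa segments these medians were 0.697 and 0.673. The ranges overlapped almost wholly, from 0.494 to 0.822 within and 0.476 to 0.856 between groups for the heavy segments. The most similar library to a given library belonged to its own group for 2 of the 12 libraries by the heavy and 3 of the 12 by the kappa segments. The Con libraries were the most alike among themselves by the heavy segments (median of 3 pairs 0.805), and the UA+DSS libraries the least (0.545). By the Bray-Curtis similarity Con was again the most alike (0.690), but DSS the least (0.536), with UA+DSS at 0.606. Pairs of libraries share libraries, so these are descriptions without a test.

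Segments are named by families of related sequence, the first number of the symbol, and the 171 fell into 34 families. Ighv1, the largest mouse heavy family with 44 of the 88 heavy members, took 63.5, 62.7 and 74.7% of the heavy counts in Con and 48.0, 52.1 and 58.8% in DSS. No DSS library reached the lowest Con library. In UA+DSS it took 62.2, 58.6 and 47.2% and in DSS+UA 61.0, 67.3 and 54.4%. Every UA+DSS library lay below every Con library, while DSS+UA overlapped with both Con and DSS. The Ighv7 family of 3 members took 0.690, 0.691 and 0.389% in Con and 11.8, 8.86 and 1.09% in DSS, and 1.999, 1.08 and 17.3% and 8.59, 4.23 and 4.80% in UA+DSS and DSS+UA. Each library with DSS lay above each Con library. The Ighv6 family took 2.02, 2.09 and 1.70% in Con and 4.62, 2.19 and 11.2% in DSS, with DSS 3 the highest. Among the kappa families, Igkv3 (8 members) took 12.2, 11.2 and 17.6% of the kappa counts in Con and 7.19, 8.39 and 5.65% in DSS, again without overlap but in the other direction. The Igkv1 family (7 members) took 41.4% in DSS 3 and 9.52 to 19.8% in the other libraries.

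In DSS against Con, which asks what the colitis model did, edgeR called 33 of the 167 tested V segments raised (19.8%) and 0 lowered, where it called 13.9% of all 17658 tested genes raised and 12.6% lowered. At an unadjusted p under 0.05 it had 65 raised and 0 lowered segments, DESeq2 called 63 raised and 0 lowered, and limma-voom 23 raised and 0 lowered. The share raised was 37.7% by DESeq2 against 16.7% of all genes, and 13.8% by limma-voom against 13.2%. It thus stood above the share of all genes in this edgeR fit and by DESeq2, and near it by limma-voom. The fitted log2 fold change was positive for 141 of the 167, with a median of 1.65 against -0.03 over all tested genes. The libraries did not overlap, with DSS higher, for 46 segments (27.5%) where 21.2% of all genes did so, and with DSS lower for 1, where 20.1% of all genes did so. That segment, looked up after its values were seen, was Igkv1-99, at 10.2, 37.4 and 51.8 CPM in the Con mice and 2.45, 1.35 and 4.54 CPM in the DSS mice (log2 fold change -3.57, SE 1.66, edgeR adjusted p = 0.133). The raised segments were 18 heavy, 14 kappa and 1 lambda, from 19 families. For 28 of the 33 no DSS library fell to the level of a Con library. Their selection by a test on the same libraries favours this, so it adds no support. Of the 33, 11 shared under 10% of their stretches with other genes. The log2 fold changes of the 33 ran from 1.86 (Igkv3-7) to 7.15 (Ighv3-5). V segments varied more between mice than most genes. The median SD of log2 CPM within a group was 0.95 to 1.22 over the V segments and 0.22 to 0.32 over all tested genes. The count of raised segments was 15 without Con 1, 17 without Con 2, 17 (and 1 lowered) without DSS 1 and 35 without DSS 3. As shares these were 8.77, 9.94, 10.2 and 20.5%, against 11.3, 8.13, 10.2 and 12.5% of all genes, so that without Con 1 or DSS 1 the share raised was not above that of all genes. The score of colon position as a covariate gave 42 raised and 0 lowered (25.1% raised, against 16.3% of all genes). In other edgeR fits the share raised was nearer that of all genes. It was 7.02% against 6.33% without the filter on low counts, and 14.4% against 13.2% with the replicate number as a block. A fit of only the 2 groups compared gave 9.38% against 7.39%.

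**Figure D4:**
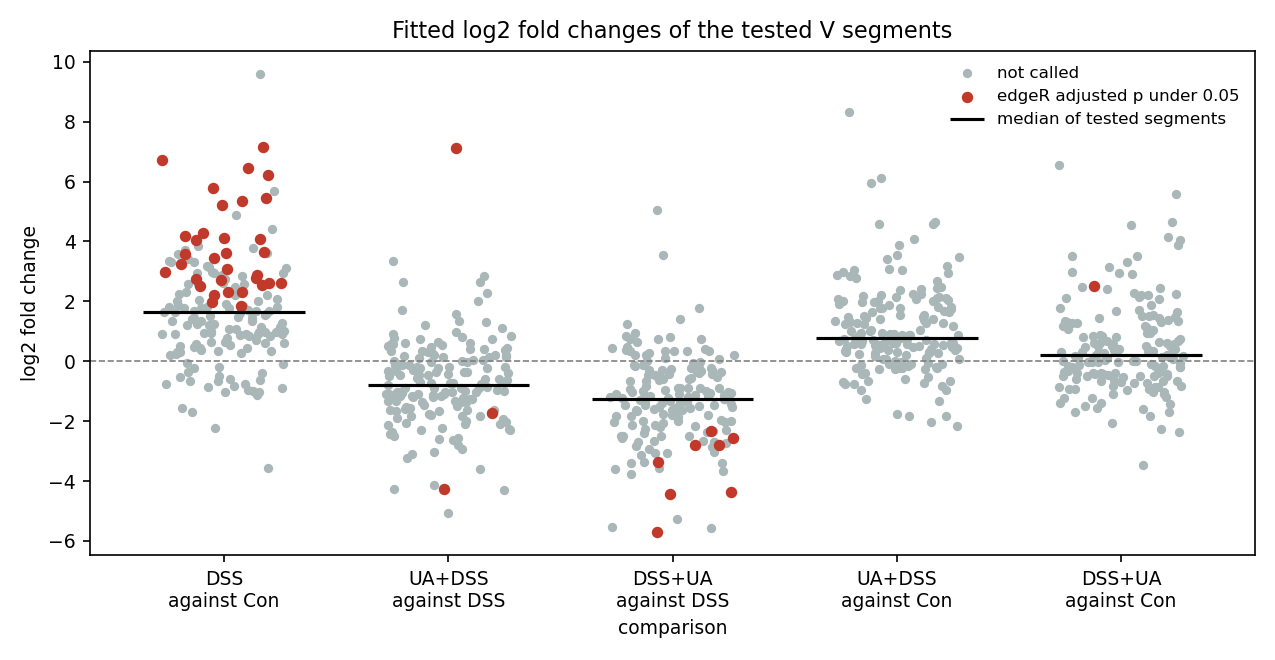
Each point is 1 of the 167 tested V segments, with its fitted log2 fold change on the vertical axis in each of the 5 comparisons, red where the edgeR adjusted p was under 0.05, and a black line at the median. Against Con the medians are 1.65 for DSS, 0.76 for UA+DSS and 0.19 for DSS+UA, and against DSS they are -0.79 for UA+DSS and -1.28 for DSS+UA.

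The 5 segments raised most among those without overlap were Ighv3-5, Ighv9-4, Ighv7-4, Igkv5-37 and Ighv7-3, all low in Con. Ighv3-5 (ENSMUSG00000076670, chr12:114262652-114263087, minus strand) read 0.0517, 0.277 and 0.107 CPM in the Con mice and 33.9, 29.7 and 0.581 CPM in the DSS mice. DSS 3 was only slightly above Con, and DSS 1 and 2 carried the gain (log2 fold change 7.15, SE 1.95, edgeR adjusted p = 0.0231). Ighv9-4 (ENSMUSG00000094322, chr12:114299961-114300389, minus strand) read 0.259, 0.166 and 0.374 CPM in the Con mice and 10.2, 6.56 and 70.4 CPM in the DSS mice, with DSS 3 the highest (log2 fold change 6.73, SE 1.26, edgeR adjusted p = 0.00550). Its call held in every alternative (adjusted p 1.68e-10 to 0.0338), and its log2 fold change was 4.94 without DSS 3. Ighv7-3 read 0.414, 2.88 and 3.96 CPM in the Con mice and 295, 87.1 and 21.9 CPM in the DSS mice (log2 fold change 5.80, SE 1.44, edgeR adjusted p = 0.0159), and its log2 fold change was 4.50 without DSS 1. Ighv7-4 (ENSMUSG00000076668, chr12:114222788-114223328, minus strand) had 3 counts in the Con libraries together and 327 in those of DSS, and it read 13.3, 0.200 and 2.48 CPM in the DSS mice. The ratio of its counts, per library total, was 102 with a 95% interval of 34.6 to 498 for counting error only (edgeR adjusted p = 0.0264). Igkv5-37 (ENSMUSG00000076571, chr6:69963312-69963873, minus strand) had 4 counts over Con and 358 over DSS, a ratio of 83.8 with a 95% interval of 32.5 to 309 for counting error only, and read 15.0, 0.802 and 1.58 CPM in the DSS mice (edgeR adjusted p = 0.0255). DSS 1 held most of the counts of both. Ighv3-5 lost its call without Con 1, Con 2, Con 3, DSS 1 or DSS 2 (edgeR adjusted p 0.0507 to 0.0719), Ighv7-4 without Con 1, Con 2, Con 3 or DSS 1 (0.0658 to 0.0845), Igkv5-37 without Con 1, Con 2, Con 3 or DSS 1 (0.0565 to 0.0963) and Ighv7-3 without Con 2 (0.0585). Each of these segments also lost its call without the filter on low counts, with the colon position covariate and by limma-voom. Ighv7-4 lost it with the replicate number as a block too, and Igkv5-37 in a fit of only the 2 groups compared. The fitted log2 fold changes of Ighv7-4 and Igkv5-37 were 4.47 and 3.92 without DSS 1 and 9.61 and 9.73 without Con 2, the library with all of their Con counts. That of Ighv3-5 was 7.96 without Con 2.

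Of the 10 segments with the highest mean levels, 6 were raised in DSS. They were Iglv1, Igkv1-117, Igkv1-110, Ighv1-53, Ighv7-3 and Ighv1-9. Ighv1-9 (ENSMUSG00000094694, chr12:114583569-114584002, minus strand) read 5.79, 11.8 and 21.2 CPM in the Con mice and 179.7, 48.3 and 80.6 CPM in the DSS mice (log2 fold change 2.99, SE 0.65, edgeR adjusted p = 0.00948), and its call held in every alternative (adjusted p 6.98e-06 to 0.0417), with a log2 fold change of 2.32 without DSS 1. Igkv1-117 was raised at a log2 fold change of 2.60 (SE 0.72, edgeR adjusted p = 0.0245), and of 1.43 without DSS 3. Its call was lost without Con 1, Con 3 or DSS 3 (adjusted p 0.0538 to 0.0827). Igkv1-110, its near copy, read 15.98, 43.4 and 27.2 CPM in the Con mice and 135, 41.6 and 315 CPM in the DSS mice (log2 fold change 2.51, SE 0.63, edgeR adjusted p = 0.0168), with DSS 2 below the highest Con library. The log2 fold change was 1.61 without DSS 3, and the call was lost without Con 1 or Con 3 (adjusted p 0.0513 to 0.0549). Ighv1-53 read 2.43, 13.5 and 27.9 CPM in the Con mice and 312, 23.8 and 142 CPM in the DSS mice (log2 fold change 3.45, SE 0.97, edgeR adjusted p = 0.0267). DSS 2 lay below Con 3, and the call was lost without Con 1, Con 2 or DSS 1 (adjusted p 0.0574 to 0.0889), with log2 fold changes of 2.51 without DSS 1 and 4.32 without Con 3. Igkv1-117, Igkv1-110 and Ighv1-53 also lost their calls without the filter on low counts and in a fit of only the 2 groups compared. With the replicate number as a block, Igkv1-117 and Ighv1-53 lost theirs too. Ighv1-81 did not pass (log2 fold change 2.23, SE 0.76, edgeR adjusted p = 0.0517), nor did Igkv10-96, Igkv14-111 and Igkv6-23 (edgeR adjusted p = 0.325, 0.624 and 0.650).

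In every alternative that gave a value, 10 of the 33 kept their call. They were Iglv1, Ighv1-9, Ighv9-4, Igkv4-53, Igkv4-59, Ighv1-54, Ighv14-2, Ighv2-3, Ighv3-6 and Igkv16-104, of which Ighv1-54, Ighv2-3, Ighv3-6 and Igkv16-104 were named after their values were seen. Ighv1-54 read 1.45, 4.71 and 4.60 CPM in the Con mice and 50.7, 42.9 and 41.7 CPM in the DSS mice (log2 fold change 3.65, SE 0.59, edgeR adjusted p = 0.00328). Igkv16-104, which shares no 50-base stretch with another gene, read 2.90, 4.83 and 4.65 CPM in the Con mice and 22.03, 27.3 and 26.3 CPM in the DSS mice (log2 fold change 2.61, SE 0.48, edgeR adjusted p = 0.00486). In both of these segments the 3 DSS mice stood close together. Ighv3-6 read 2.38, 15.7 and 15.0 CPM in the Con mice and 55.1, 71.8 and 101 CPM in the DSS mice (log2 fold change 2.79, SE 0.62, edgeR adjusted p = 0.0101). Igkv4-53 read 0.724, 2.83 and 4.38 CPM in the Con mice and 113, 49.3 and 134 CPM in the DSS mice (log2 fold change 5.22, SE 0.90, edgeR adjusted p = 0.00410). Their adjusted p reached at most 0.0152, 0.0207, 0.0460 and 0.0230 over the alternatives.

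In UA+DSS against DSS, which asks what ursolic acid given from before DSS changed, edgeR called 1 of the 167 segments raised (0.599%) and 2 lowered (1.20%), where 8.21% of all tested genes were raised and 10.5% lowered. At an unadjusted p under 0.05 there were 4 raised and 21 lowered, DESeq2 called 4 and 17 (2.40 and 10.2%, against 11.4 and 14.1% of all genes) and limma-voom 1 and 3. The median log2 fold change was -0.79 against -0.02 over all genes. The libraries did not overlap, with UA+DSS lower, for 18 segments (10.8%, against 21.7% of all genes). The lowered segments were Ighv9-4 and Igkv4-59. Ighv9-4 read 10.2, 6.56 and 70.4 CPM in the DSS mice and 0.642, 3.19 and 0.691 CPM in the UA+DSS mice (log2 fold change -4.27, SE 1.08, edgeR adjusted p = 0.0241). Igkv4-59 (ENSMUSG00000094006, chr6:69438218-69438757, minus strand), of whose stretches other genes share 74.3%, read 100.3, 26.8 and 51.0 CPM in the DSS mice and 15.2, 16.1 and 22.2 CPM in the UA+DSS mice (log2 fold change -1.73, SE 0.47, edgeR adjusted p = 0.0293). Ighv1-37 (ENSMUSG00000095923, chr12:114896238-114896671, minus strand) was the raised segment. It had 3 counts in the DSS libraries together and 379 in those of UA+DSS, a ratio of 150.1 with a 95% interval of 51.0 to 731 for counting error only, and read 14.4, 8.81 and 0.691 CPM in the UA+DSS mice (edgeR adjusted p = 0.0196). It also read 5.01 CPM in DSS+UA 2, above UA+DSS 3. Ighv9-4 lost its call without DSS 3, UA+DSS 1, UA+DSS 2 or UA+DSS 3 (edgeR adjusted p 0.0540 to 0.0856), Igkv4-59 without DSS 1, UA+DSS 1, UA+DSS 2 or UA+DSS 3 (0.0611 to 0.113) and Ighv1-37 without DSS 1, DSS 2 or UA+DSS 2 (0.0549 to 0.0718). By limma-voom Ighv9-4, Igkv4-59 and Ighv1-37 each lost their call. Ighv9-4 and Igkv4-59 also lost theirs without the filter on low counts and in a fit of only the 2 groups compared. The log2 fold change of Ighv9-4 was -2.48 without DSS 3 and -5.43 without UA+DSS 2, that of Igkv4-59 -1.13 without DSS 1, and that of Ighv1-37 7.93 and 6.39 without DSS 1 and UA+DSS 1. The number called was 0 without UA+DSS 2 (17 at an unadjusted p under 0.05), 2 without DSS 1, UA+DSS 1 or UA+DSS 3, 5 without Con 2 or DSS+UA 2, 6 without DSS 3 and 7 without Con 1 or DSS 2. Without UA+DSS 2, 0.504% of all genes were raised and 0.498% lowered. The share of segments lowered was at most 4.14% (without DSS 2), where 6.12% of all genes were lowered. The share raised was at most 1.17% (without Con 2), where 7.06% of all genes were raised. No segment was called with the score of colon position as a covariate (38 at an unadjusted p under 0.05). Over all genes that fit called 0.0113% raised and 0.00566% lowered, and the score did not overlap between these groups.

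In DSS+UA against DSS, which asks what ursolic acid begun during DSS changed, edgeR called 0 of the 167 segments raised and 8 lowered (4.79%), where 7.54% of all tested genes were called, 2.54% raised and 5.0% lowered. The share of segments lowered was thus near that of all genes. At an unadjusted p under 0.05 there were 1 raised and 41 lowered, DESeq2 called 1 raised and 37 lowered, and limma-voom 0 raised and 6 lowered. The share lowered was 22.2% by DESeq2 against 10.7% of all genes, and 3.59% by limma-voom against 4.22%. The median log2 fold change was -1.28 against 0.02 over all genes. The libraries did not overlap, with DSS+UA lower, for 33 segments (19.8%, against 16.4% of all genes). The 5 lowered most without overlap were Igkv4-53, Ighv6-3, Ighv3-1, Ighv14-2 and Igkv6-20. Igkv4-53 read 113, 49.3 and 134 CPM in the DSS mice and 1.58, 2.85 and 1.22 CPM in the DSS+UA mice, within the Con range of 0.724 to 4.38 CPM. Ighv6-3 read 138, 12.7 and 278 CPM in the DSS mice and 10.5, 6.19 and 3.16 CPM in the DSS+UA mice, and DSS 2 was little above DSS+UA 1. Ighv3-1 (ENSMUSG00000093838, chr12:113964388-113964818, minus strand) read 1.64, 8.52 and 16.5 CPM in the DSS mice and 0.0527, 0.742 and 0.499 CPM in the DSS+UA mice (log2 fold change -4.37, SE 1.12, edgeR adjusted p = 0.0442). In Ighv14-2 (ENSMUSG00000095583, chr12:113994469-113994898, minus strand) DSS stood at 69.6, 32.9 and 29.5 CPM and DSS+UA at 6.85, 4.45 and 1.497 CPM (log2 fold change -3.36, SE 0.82, edgeR adjusted p = 0.0398). In Igkv6-20 (ENSMUSG00000076587, chr6:70335841-70336507, minus strand) DSS stood at 18.3, 14.2 and 27.6 CPM and DSS+UA at 2.42, 2.97 and 3.22 CPM (log2 fold change -2.80, SE 0.71, edgeR adjusted p = 0.0431). The other 3 were Ighv1-54, Igkv5-43 and Igkv1-110, the first 2 named after their values were seen, with log2 fold changes of -2.56, -2.79 and -2.33 (edgeR adjusted p = 0.0296, 0.0403 and 0.0492). Of the 8, Igkv4-53, Ighv6-3, Ighv14-2, Ighv1-54, Igkv5-43 and Igkv1-110 were also among those raised in DSS against Con, a comparison that uses the same DSS libraries.

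These 8 calls depended on single libraries. The number of lowered segments was 0 without DSS+UA 2 or without DSS+UA 3, with 49 and 31 segments at an unadjusted p under 0.05. It was 1 without DSS+UA 1, 2 without UA+DSS 1 or UA+DSS 3, 4 without DSS 1, Con 2 or UA+DSS 2, 5 without DSS 2 and 18 without Con 1. Of all genes, 0.775% were lowered without DSS+UA 2 and 0.137% without DSS+UA 3. Without DSS+UA 1 the share lowered was 0.588%, against 2.95% of all genes. Without UA+DSS 1 or UA+DSS 3 it was 1.17 and 1.18%, against 2.74 and 2.58%. Without DSS 1, Con 2 or UA+DSS 2 it was 2.40, 2.34 and 2.34%, against 4.66, 3.77 and 2.84%. Without DSS 2 it was 2.96% against 2.02%, and without Con 1 10.5% against 5.88%. Igkv4-53 lost its call only without DSS+UA 2 or DSS+UA 3 (edgeR adjusted p 0.0504 to 0.0929). Ighv6-3 lost it without Con 2, DSS 3, UA+DSS 1, UA+DSS 2, UA+DSS 3, DSS+UA 1, DSS+UA 2 or DSS+UA 3 (0.0543 to 0.131), and its log2 fold change was -3.50 without DSS 3. Ighv3-1 lost it without Con 2, DSS 2, DSS 3, UA+DSS 1, UA+DSS 2, UA+DSS 3, DSS+UA 1, DSS+UA 2 or DSS+UA 3 (0.0610 to 0.139), with log2 fold changes of -3.54 without DSS 3 and -5.03 without DSS+UA 2. Ighv14-2 kept it only without Con 1, Con 3 or DSS 3 (edgeR adjusted p 0.0543 to 0.130 without the others), Igkv6-20 only without Con 1, Con 2 or UA+DSS 2 (0.0519 to 0.136), Igkv1-110 only without Con 1 or DSS 2 (0.0597 to 0.155) and Igkv5-43 only without a Con library or DSS 2 (0.0606 to 0.135). Ighv1-54 lost it without DSS 2 or any DSS+UA library (0.05004 to 0.110). For Igkv1-110 the log2 fold change was -1.42 without DSS 3. With the score of colon position as a covariate 1 segment was called lowered (0.599%, against 0.968% of all genes), and this was Igkv4-53. The same fit called 0.159% of all genes raised. Between DSS+UA and DSS, too, the score did not overlap. Without the filter on low counts Igkv4-53 was again the only segment called (0.585%, against 1.92% of all genes lowered). A fit of only the 2 groups compared lost the calls of Igkv1-110, Ighv6-3, Igkv5-43, Ighv14-2 and Ighv3-1. With the replicate number as a block, those of Igkv1-110, Ighv6-3, Igkv5-43, Ighv14-2 and Igkv6-20 were lost. By limma-voom those of Igkv1-110, Ighv6-3, Igkv5-43 and Ighv3-1 were lost.

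Against Con, edgeR called 0 of the 167 segments in UA+DSS, where it called 0.00566% of all tested genes raised and 0.00% lowered. At an unadjusted p under 0.05 there were 28 raised and 0 lowered segments, while DESeq2 called 15 raised and 0 lowered (8.98% raised, against 1.01% of all genes) and limma-voom 0. The log2 fold change was positive for 131 segments, with a median of 0.76, and the libraries did not overlap, with UA+DSS higher, for 31 (18.6%, against 9.62% of all genes) and with UA+DSS lower for 0. In DSS+UA against Con edgeR called 1 segment raised (0.599%) and 0 lowered, where 9.13% and 8.95% of all tested genes were called. At an unadjusted p under 0.05 there were 15 raised and 2 lowered, DESeq2 called 13 raised and 2 lowered (7.78 and 1.20%, against 12.9 and 13.4% of all genes), and limma-voom 1 raised and 0 lowered. The libraries did not overlap for 12 segments, all with DSS+UA higher (7.19%, against 19.8% of all genes). The called segment was Igkv4-59, at 9.41, 5.49 and 11.6 CPM in the Con mice and 50.9, 30.4 and 68.6 CPM in the DSS+UA mice (log2 fold change 2.501, SE 0.48, edgeR adjusted p = 0.00928). It read 15.2, 16.1 and 22.2 CPM in the UA+DSS mice, so that its 4 groups ran Con, UA+DSS, then DSS and DSS+UA, of which DSS and DSS+UA overlapped. Its call held without any 1 library and was lost with the score of colon position as a covariate (edgeR adjusted p = 0.0732). Without Con 1, DSS+UA against Con gave 1 raised and 3 lowered segments, without DSS 1, 2 or 3 it gave 4 raised and 0 lowered, and without DSS+UA 3 it gave 2 raised and 0 lowered. In that order the shares raised were 0.585, 2.40, 2.37, 2.34 and 1.17%, against 9.29, 7.99, 11.7, 8.91 and 3.44% of all genes. The share lowered without Con 1 was 1.75%, against 8.54% of all genes.

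**Figure D5:**
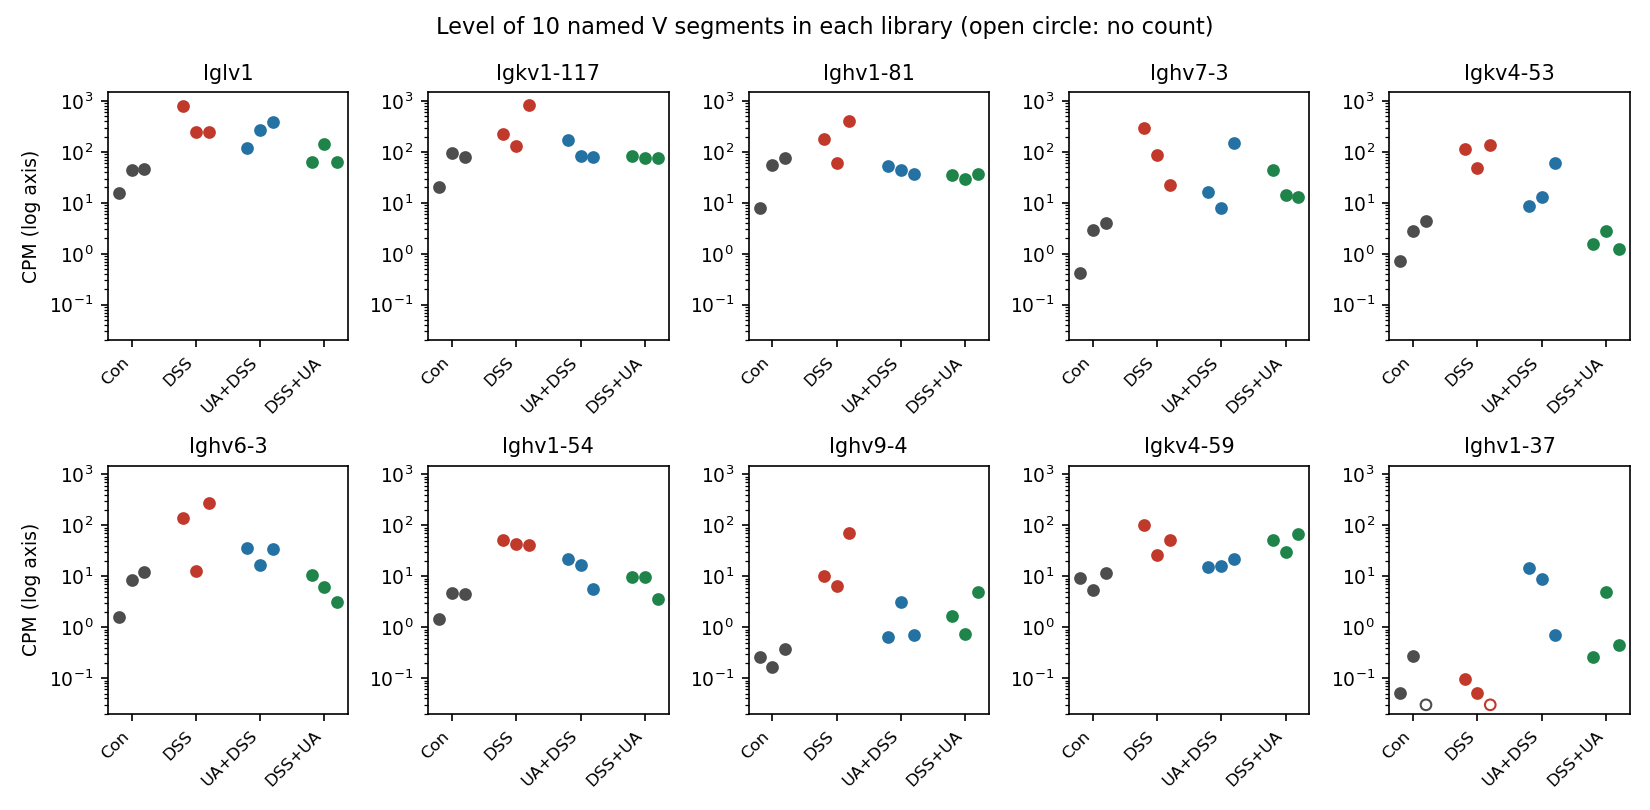
Points give the CPM (log axis) of 10 named V segments in the 3 libraries of each group, with open circles at the lower edge for libraries without a count. The 3 Con libraries lie below the 3 DSS libraries for each segment shown except Ighv1-81 and Ighv1-37, and Igkv4-53 in DSS+UA lies between 1.22 and 2.85 CPM.

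The constant regions, to which the V segments are spliced, give a second reading of the same transcripts. Of the 12 listed, 11 were tested, and edgeR called 6 raised and 0 lowered in DSS against Con, with a median log2 fold change of 2.32 against -0.03 over all genes. Of all tested genes 13.9% were raised and 12.6% lowered there. Against DSS edgeR called 0 raised and 2 lowered for UA+DSS and 0 and 1 for DSS+UA. In that order 10.5% and 5.0% of all tested genes were lowered. Igha, the IgA constant region and the most abundant, read 1905, 4146 and 5202 CPM in the Con mice and 10503, 6497 and 7439 CPM in the DSS mice, without overlap, and did not pass the test (log2 fold change 1.12, SE 0.39, edgeR adjusted p = 0.0559). Iglc1 passed (log2 fold change 3.33, SE 0.66, edgeR adjusted p = 0.00652), as did the IgG regions Ighg2b, Ighg2c and Ighg3, and Ighm and Iglc3. Ighg2b read 64.0, 40.8 and 38.0 CPM in the Con mice and 566, 122 and 136 CPM in the DSS mice (log2 fold change 2.53, SE 0.56, edgeR adjusted p = 0.0102). Iglc1 was the constant region lowered in DSS+UA against DSS (log2 fold change -2.33, SE 0.63, edgeR adjusted p = 0.0494). Of 12 plasma cell genes, 5 were raised and 0 lowered in DSS against Con (median log2 fold change 0.52), against 13.9 and 12.6% of all tested genes. The 5 raised were Derl3, Irf4, Mzb1, Prdm1 and Xbp1, of the secretory machinery and of the factors that set plasma cell identity. Among the other 7, Tnfrsf17 (log2 fold change -0.63, edgeR adjusted p = 0.471) and Sec11c (-0.40, edgeR adjusted p = 0.119) read lower in each DSS library than in each Con library and did not pass. Against DSS, 1 of the 12 was lowered for UA+DSS and 2 (Derl3 and Irf4) for DSS+UA, against 10.5% and 5.0% of all tested genes. Jchain, which joins IgA dimers, did not pass in DSS against Con (log2 fold change 0.41, SE 0.47, edgeR adjusted p = 0.532), at 821, 1719 and 2109.5 CPM in the Con mice and 2737, 1519 and 1940.5 CPM in the DSS mice. The V total divided by Jchain was 0.559, 0.994 and 1.27 in Con, 2.68, 1.67 and 2.91 in DSS, 1.75, 2.37 and 2.51 in UA+DSS and 1.86, 1.82 and 1.74 in DSS+UA. Every Con library lay below every library with DSS. Divided by the sum of the 12 plasma cell genes in place of Jchain, the V total did not separate them, since Con 3 (0.761) lay above DSS+UA 1 (0.714) and DSS+UA 3 (0.590).

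Heavy V counts divided by Igha counts gave 0.0511, 0.147 and 0.198 in Con and 0.306, 0.155 and 0.339 in DSS, which overlapped, and kappa V divided by Igkc gave 0.202, 0.383 and 0.484 and 0.593, 0.413 and 0.685, which overlapped too. These ratios compare counts, not levels per length. The 14 B cell genes summed to 192, 50.03 and 59.7 CPM in the Con mice, 636, 459 and 171 CPM in the DSS mice, 86.0, 52.8 and 62.0 CPM in the UA+DSS mice and 438, 126 and 258 CPM in the DSS+UA mice. Con 1, the library with the lowest V level, thus had the highest B cell sum of Con, and UA+DSS, with V levels above most of Con and DSS+UA, had low B cell sums. Of the 14 B cell genes 5 were raised in DSS against Con (median log2 fold change 2.09), where 13.9% of all tested genes were raised. Against DSS 9 of the 14 were lowered for UA+DSS and 0 for DSS+UA, against 10.5% and 5.0% of all tested genes. The 12 plasma cell genes summed to 1709.7, 3132 and 3509 CPM in the Con mice and 4131, 2783 and 3425 CPM in the DSS mice. Of 12 listed genes of germinal centres and antibody diversification, 9 were tested. In DSS against Con 2 of them, Bcl6 and S1pr2, were raised, where 13.9% of all tested genes were raised. The part of B cell follicles and of plasma cell numbers in the V segment levels was not tested.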

How the data were processed

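RNA-seq was run on colon tissue of 12 mice. The deposited values are raw counts of reads per gene, 1 table a mouse, which the authors made from reads aligned to the mouse genome GRCm38 (the submitters' processing notes name HISAT2, FastQC and Cuffdiff). The counting program, annotation, strand setting, tool versions and handling of multi-mapped reads (not given in the sources used here) can move counts between near-identical segments. Genes were named by Ensembl identifier through GENCODE M21, and counts of identifiers without a name made up 0.0297% of all counts.

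The counts were tested with edgeR 4.0.16 in R 4.3.3 (quasi-likelihood, robust, TMM scaling, filterByExpr, all 12 libraries in 1 fit of 17658 genes), with Benjamini-Hochberg adjustment over all genes and a threshold of 0.05. The SE of a log2 fold change came from the fit. DESeq2 1.42.0 and limma-voom 3.58.1 were alternatives, beside other scaling, filtering, a replicate block, a colon position covariate and leaving out each library. The scripts were tested on simulated data. Library measures, shares and similarities were computed in Python 3.11.15 with pandas 2.3.3 and carry no test. P-values measure the spread between these mice only. Count ratios of segments with under 5 counts in a group carry an exact 95% interval for counting error only.

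The members and lists were chosen with earlier results of these data known. Named were the 10 segments of highest mean level, the leaders of each library, the 3 on each side of the threshold, every lambda segment and, per comparison, up to 5 segments raised and 5 lowered most among those called without overlap. Sequences came from the GENCODE M21 transcripts. The labels name Trizol for the RNA extraction and the methods an RNeasy kit.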

Additional observations from a re-analysis of the deposited data

How the results depend on the processing

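Calls were recomputed under 20 alternatives, 12 of them without 1 library. Of 100 recomputed counts of changed segments, 62 stayed within 1.5 times the reported count and 38 did not. Of 898 recomputed values of the 45 called segment comparisons, 601 kept the call, 297 lost it and 0 changed sign. Leaving out each library in turn gave 15 to 36 changed segments in DSS against Con, 0 to 7 for UA+DSS and 0 to 18 for DSS+UA against DSS, and 0 and 1 to 4 for UA+DSS and DSS+UA against Con. DESeq2 gave 63, 21, 38, 15 and 15 in that order. Without the filter on low counts DSS against Con gave 12 and DSS+UA against DSS 1. These were 7.02% raised, against 6.33% of all genes, and 0.585% lowered, against 1.92%. A fit of only the 2 groups compared gave 16 in DSS against Con and 3 in DSS+UA against Con. With the score of colon position as a covariate the counts were 0 for UA+DSS and 1 for DSS+UA against DSS, and 5 for DSS+UA against Con. In that order the shares of all genes raised and lowered were then 0.0113 and 0.00566%, 0.159 and 0.968%, and 5.64 and 6.68%. The causes of these shifts were not tested.

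Scaling by library size alone shifted the all-gene median (log2 fold change) from 0.02 to -0.11 in DSS+UA against DSS and from -0.02 to -0.12 in UA+DSS against DSS, and moved no count of changed segments by over 1.5 times.

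Libraries with the same replicate number did not deviate together, with correlations of their deviations from the group means between -0.216 and 0.187 (median 0.041, 18 pairs) against -0.289 to 0.240 over the 36 pairs with different numbers. The numbers were therefore not taken to pair the mice. With the replicate number as a block, DSS+UA against DSS gave 4 changed segments and DSS+UA against Con 2, and the other comparisons stayed within 1.5 times. The 4 were 2.40% lowered, against 2.61% of all genes, and the 2 were 1.20% raised, against 8.73%.

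The group means of the library measures, given in the order Con, DSS, UA+DSS, DSS+UA, were recomputed with the median similarities within and between groups. Of these 420 values, 62 moved by more than 1 SD, taken over libraries for the means and over pairs of libraries for the similarities. Leaving out 1 of 3 libraries cannot move a mean by 1 SD, so those values say nothing of stability. They ran from 9.72 to 19.9% for the top kappa segment's share in DSS and from 8.05 to 15.7% for the lambda share in UA+DSS. Without the 126 segments that share stretches, the V level was 328, 1014, 591 and 416 CPM and the heavy, kappa and lambda shares were 18.2, 48.2, 42.8 and 35.2%, 79.9, 50.8, 56.5 and 63.4% and 1.95, 0.908, 0.677 and 1.36%. The lambda share then rests on Iglv3. The top 1, 5 and 10 segments took 29.4, 31.2, 37.3 and 36.3%, 75.9, 82.1, 82.0 and 80.0% and 95.9, 96.1, 96.2 and 97.1% of the heavy counts, and 22.8, 21.5 and 19.95 (Con, UA+DSS and DSS+UA alone)%, 64.6, 59.4, 65.0 and 62.2% and 88.7, 85.5, 87.4 and 86.2% of the kappa counts. The effective numbers were 8.52, 7.56, 7.07 and 7.46 (heavy) and 12.0, 12.7, 12.3 and 12.8 (kappa). Counted over families in place of segments they were 3.76, 5.27, 4.94 and 4.39 and 10.7, 9.88, 11.7 and 11.2. With only segments of 1000 or more counts, the effective number was 35.9 in Con and 37.3 in DSS+UA (heavy) and 33.5 in Con, 37.3 in UA+DSS and 34.4 in DSS+UA (kappa), the top 10 heavy share 49.0% in DSS+UA and the top 10 kappa share 48.2% in UA+DSS. Leaving out pseudogenes changed nothing, since no member is one. Dividing counts by exon length, an alternative chosen after seeing the data, left the same 10 segments first. No alternative resolved reads that match several segments, and 3 mice a group limit every comparison.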
